A study of Mus musculus with 6 samples.

Results

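The mevalonate arm is the stretch of cholesterol synthesis that turns acetyl-CoA into squalene, with a branch point that leads to geranylgeranyl diphosphate. Its transcripts were described for 9 enzymes of the route, Acat2, Hmgcs1, Mvk, Pmvk, Mvd, Idi1, Fdps, Ggps1 and Fdft1, out of 54838 genes in the deposited count tables. The enzymes were chosen by name for their place in the pathway, with earlier results of these data known. All 9 had enough reads to be tested. RNA was sequenced from cultures of the mouse melanoma line B16F10, which makes pigment, in 3 libraries treated with 10 µM GSK126 and 3 treated with the vehicle DMSO. GSK126 inhibits EZH2, the enzyme of Polycomb repressive complex 2 that methylates histone H3 on lysine 27. All cells were kept in medium with fetal bovine serum, which is a source of lipoprotein cholesterol. The labels name no genetic change, and how long the cells were treated was not stated in them. Nothing in them says that replicates came from different cultures, so p-values measure the spread between these libraries, which may be technical.

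In the pathway, a thiolase joins acetyl-CoA units, HMG-CoA synthase adds a further one, and after reduction to mevalonate 2 kinases and a decarboxylase make isopentenyl diphosphate, the building block of all isoprenoids. An isomerase and a prenyltransferase build farnesyl diphosphate, which goes either to squalene and sterols or to geranylgeranyl diphosphate, the lipid anchor of many small GTPases. Transcription of many of these genes is known to be driven by the factor SREBP2, which is released when sterols in the endoplasmic reticulum membrane run low. SREBPs are known to act together with the factor NF-Y, which binds the sequence CCAAT.

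The libraries held 14250457, 14713373 and 14410812 counts for GSK126 and 13594939, 14072673 and 13597959 for DMSO. Ezh2, the target of the inhibitor, stood at 193 ± 3.47 CPM (reads of a gene relative to the library's total, scaled for composition) with GSK126 and at 189 ± 4.84 CPM with DMSO (SD, n = 3 each). An inhibitor of the enzyme need not alter its transcript, so this level does not check the labels. The 7 markers of pigment cells summed to between 22772 and 23944 CPM in the GSK126 libraries and between 21369 and 22574 CPM in the DMSO libraries. Of these, Mitf (log2 fold change 0.60), Pmel (0.28), Sox10 (0.17) and Dct (0.15) rose and Mlana (-0.28) fell. Tyr (-0.0017) and Tyrp1 (-0.08) did not pass the edgeR test described below, which called 5.87% of all tested genes higher and 5.18% lower. The part of pigment cell state in the results on the enzymes was not tested. Of 5 lists for other cell types, the largest sum in any library was 4.11 CPM, for macrophage markers, and the T cell markers Cd3e, Cd4 and Cd8a had 0 reads in every library. GSK126 replicate 3 lay apart from the other GSK126 libraries on principal component 2, which held 18.7% of the variance.

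With GSK126, the transcripts of 7 of the 9 enzymes rose, from the first thiolase step to squalene synthase, by 1.38- to 1.92-fold. The enzymes were Acat2, Hmgcs1, Pmvk, Mvd, Idi1, Fdps and Fdft1 (edgeR's quasi-likelihood test over 13601 genes, with a Benjamini-Hochberg adjusted p under 0.05). Mvk lay higher without passing the test, and Ggps1, at the branch to geranylgeranyl diphosphate, stood at nearly the same level in both groups. Among all tested genes, 5.87% were called higher and 11.1% in either direction. No enzyme was called lower by edgeR, DESeq2 or limma-voom, beside 5.18% of all tested genes called lower by edgeR. At an unadjusted p below 0.05, 8 enzymes were higher and 0 lower, beside 14.4% and 13.1% of all tested genes. The groups did not overlap, with GSK126 above DMSO, for 8 of the 9 enzymes and for 17.6% of all tested genes, or 34.4% counting both directions. The median log2 fold change over the 9 enzymes was 0.72, beside -0.00048 over all tested genes. In bulk RNA from a culture, a shift in the share of cells and a shift in RNA per cell cannot be told apart.

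The count of enzymes called higher was set beside the share of all tested genes called higher in each other fit. It was 7 of 9 with DESeq2 (5.48% of all genes), limma-voom (5.73%), RLE scaling (5.8%), library totals alone (5.95%) and limma on log2(FPKM + 1) (5.72%), and 6 of 9 on log2(FPKM + 0.1) (5.61%). It was 5 of 9 with no filter on low counts (1.98%) and 5 of 9 with the replicate number as a block (1.69%). Leaving out GSK126 replicate 1, 2 or 3 gave 6, 5 and 6 enzymes (2.69%, 3.08% and 4.64% of all genes, in that order). Leaving out DMSO replicate 1, 2 or 3 gave 5, 5 and 6 enzymes (2.02%, 2.19% and 2.62%).

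**Figure D1:**
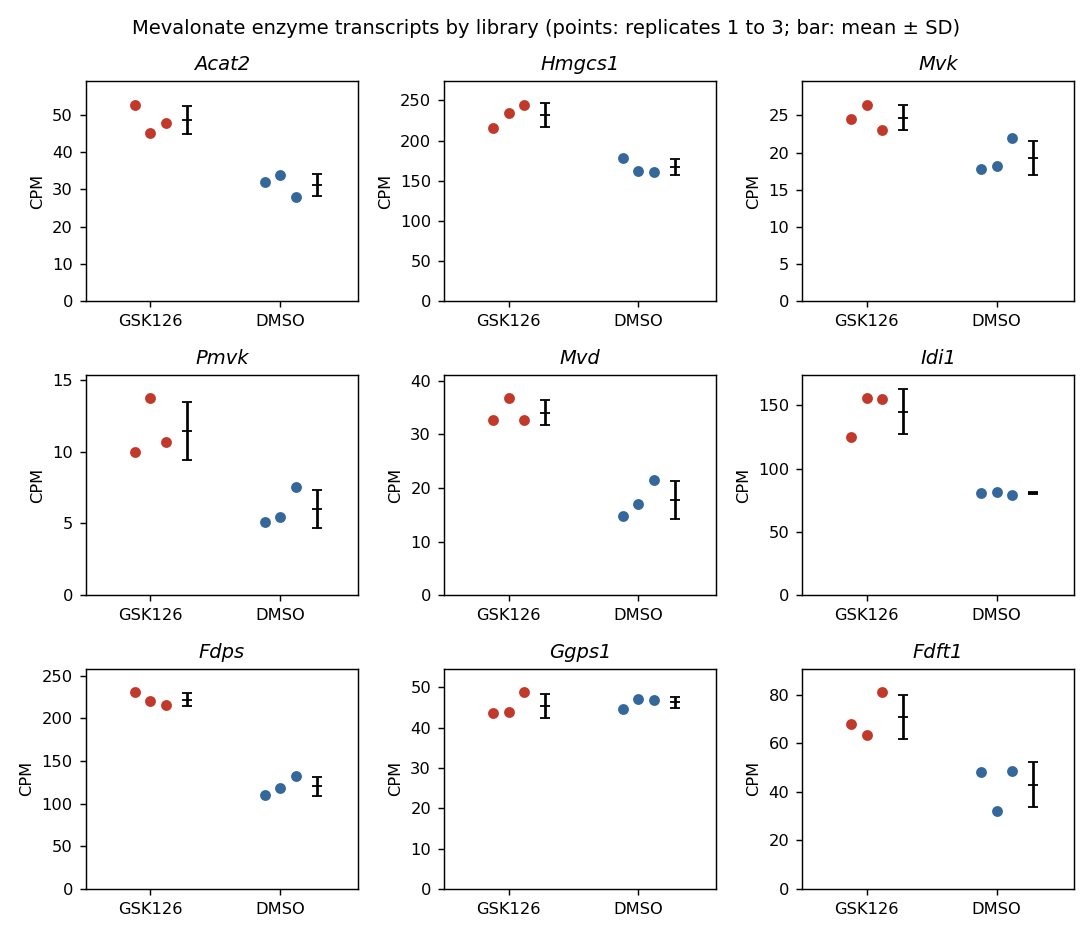
CPM of each enzyme in every library, with GSK126 on the left and DMSO on the right of each panel; points are replicates 1 to 3 and the bar is the mean ± SD. The GSK126 points lie above all DMSO points in 8 panels, and the points of both groups overlap for Ggps1.

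Acat2 encodes the cytosolic thiolase that condenses acetyl-CoA to acetoacetyl-CoA (GRCm38 chromosome 17, 12942890 to 12960747, minus strand). It stood at 52.8, 45.3 and 47.9 CPM in GSK126 replicates 1 to 3, against 31.9, 33.8 and 28.01 CPM in DMSO replicates 1 to 3. The lowest GSK126 library was above the highest DMSO library, and the log2 fold change was 0.64 (SE 0.10; edgeR adjusted p = 0.00857). Hmgcs1 encodes the cytosolic HMG-CoA synthase (chromosome 13, 119690379 to 119708260, plus strand) and had the most reads of the 9 genes. It stood at 215, 235 and 245 CPM in the GSK126 libraries, against 179, 162 and 161 CPM in the DMSO libraries. Its rise was the smallest of the 7 that passed (log2 fold change 0.47, SE 0.07; edgeR adjusted p = 0.00697).

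Mvk encodes mevalonate kinase (chromosome 5, 114444269 to 114460591, plus strand), which puts the first phosphate on mevalonate. It had 24.5, 26.4 and 23.1 CPM in the GSK126 libraries, against 17.8, 18.2 and 21.9 CPM in the DMSO libraries. The groups did not overlap, but the gap between GSK126 replicate 3 and DMSO replicate 3 was narrow, and the difference did not pass the test (log2 fold change 0.35, SE 0.11; edgeR adjusted p = 0.0777, and between 0.0543 and 0.215 under the alternatives). Pmvk encodes phosphomevalonate kinase (chromosome 3, 89454541 to 89469013, plus strand), which adds the next phosphate. It had the fewest reads of the 9, at 9.98, 13.7 and 10.7 CPM in the GSK126 libraries, against 5.07, 5.48 and 7.56 CPM in the DMSO libraries. Its log2 fold change was 0.93 (SE 0.19; edgeR adjusted p = 0.0259), and the call ended without GSK126 replicate 2, without DMSO replicate 1 or without DMSO replicate 2 (adjusted p = 0.0729, 0.0893 and 0.0943, in that order; 0.00145 to 0.0943 over all alternatives).

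Mvd encodes mevalonate diphosphate decarboxylase (chromosome 8, 122433601 to 122443422, minus strand), which closes the kinase steps by making isopentenyl diphosphate. Its libraries read 32.7, 36.7 and 32.6 CPM with GSK126, against 14.7, 16.9 and 21.6 CPM with DMSO. This was the largest change among the 9 enzymes (1.92-fold; log2 fold change 0.94, SE 0.14; edgeR adjusted p = 0.00872). Idi1 encodes the isomerase that interconverts isopentenyl and dimethylallyl diphosphate (chromosome 13, 8885501 to 8892451, plus strand). It stood at 125, 155 and 155 CPM in the GSK126 libraries, against 81.1, 81.6 and 79.4 CPM in the DMSO libraries, so that the DMSO libraries were nearly level while GSK126 replicate 1 lay below the other GSK126 libraries. The log2 fold change was 0.85 (SE 0.09; edgeR adjusted p = 0.00235).

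Fdps encodes farnesyl diphosphate synthase (chromosome 3, 89093588 to 89101959, minus strand), whose product stands at the fork between sterols and the longer prenyl chain. It had 231, 220 and 215 CPM in the GSK126 libraries, against 110, 118 and 132 CPM in the DMSO libraries. It had the smallest p of the 9 enzymes (1.85-fold; log2 fold change 0.88, SE 0.07; edgeR adjusted p = 0.00101). Ggps1 encodes geranylgeranyl diphosphate synthase (chromosome 13, 14050659 to 14063488, minus strand), which lengthens farnesyl diphosphate by a further unit. It stood at 43.6, 43.8 and 48.8 CPM in the GSK126 libraries, against 44.7, 47.2 and 47.0 CPM in the DMSO libraries. The groups overlapped, and the log2 fold change was -0.03 (SE 0.07; edgeR adjusted p = 0.842).

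Fdft1 encodes squalene synthase (chromosome 14, 63145150 to 63179578, minus strand), which commits farnesyl diphosphate to sterols. It stood at 67.9, 63.6 and 81.0 CPM in the GSK126 libraries, against 48.0, 32.2 and 48.5 CPM in the DMSO libraries, with DMSO replicate 2 well below the other DMSO libraries. The log2 fold change was 0.72 (SE 0.17; edgeR adjusted p = 0.0364). None of the 6 fits that left out a library kept this call (edgeR adjusted p between 0.0556, without DMSO replicate 2, and 0.0866, without GSK126 replicate 1), while the log2 fold change stayed between 0.55 and 0.82 in those fits. With no filter on low counts the Fdft1 call was also lost (edgeR adjusted p = 0.0913), as was that of Pmvk. On log2(FPKM + 0.1) the Fdft1 call was lost too (limma adjusted p = 0.0515). The calls of Acat2, Hmgcs1, Mvd, Idi1 and Fdps held in each of the 6 fits with a library left out.

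Fdps, whose product feeds both branches, was set against Ggps1, which opens one of them, within each library. The log2 ratio of Fdps to Ggps1 CPM was 2.40, 2.33 and 2.14 in the GSK126 libraries and 1.30, 1.33 and 1.496 in the DMSO libraries. The ratios did not overlap, and their means differed by 0.92 on the log2 scale (2.29 ± 0.14 with GSK126 and 1.37 ± 0.11 with DMSO, SD, n = 3 each; two-sided exact permutation p = 0.1, the smallest that 3 against 3 can give). This ratio was chosen after the values were seen, so its p-value adds no support to the values of Fdps and Ggps1 given above.

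Levels were compared between the enzymes on the deposited FPKM scale, which divides by gene length. In the GSK126 libraries the order of the mean levels was Fdps (39.0 ± 1.58 FPKM), Hmgcs1 (34.3 ± 2.05), Idi1 (30.2 ± 3.55), Mvd (17.3 ± 1.19), Fdft1 (10.7 ± 1.33), Acat2 (10.6 ± 0.865), Mvk (5.24 ± 0.368), Ggps1 (3.95 ± 0.237) and Pmvk (3.66 ± 0.634; SD, n = 3). In the DMSO libraries Hmgcs1 led with 24.7 ± 1.55 FPKM, ahead of Fdps with 21.1 ± 1.90 FPKM, and Pmvk was again last with 1.92 ± 0.415 FPKM (SD, n = 3). The single libraries of neighbours in this order overlapped for Hmgcs1 and Idi1, Fdft1 and Acat2, and Ggps1 and Pmvk with GSK126, and for Acat2 and Fdft1 and for Mvk and Ggps1 with DMSO, so those neighbours are not ordered beyond their spread. Summed over the 9 enzymes, the level was 155 ± 4.54 FPKM with GSK126 and 94.8 ± 3.25 FPKM with DMSO (SD, n = 3 each). The kinases Mvk and Pmvk, and likewise Ggps1, thus had low levels per length in both groups, at most 5.61 FPKM in any library.

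**Figure D2:**
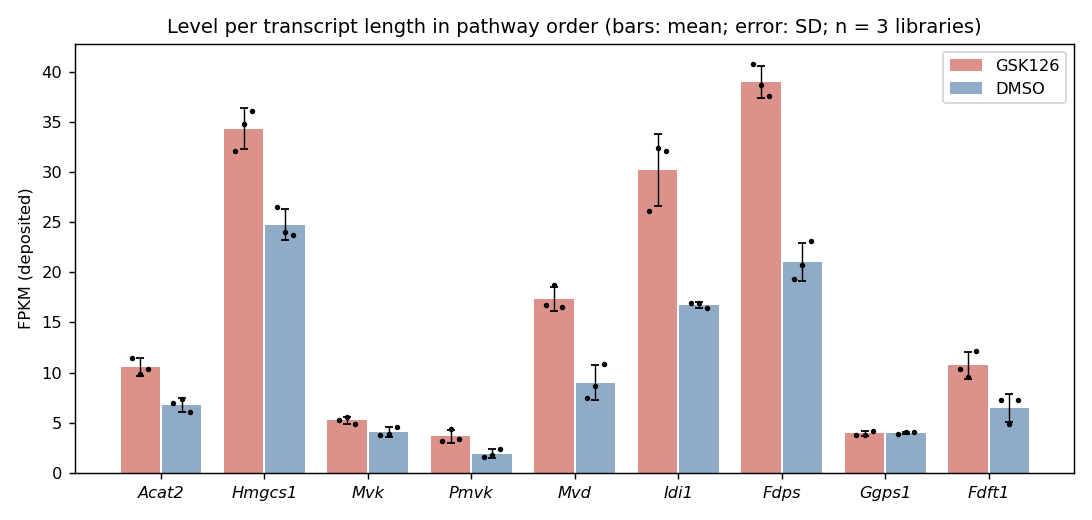
Deposited FPKM of the 9 enzymes in pathway order, GSK126 left of DMSO; bars are means, error bars the SD and dots the 3 libraries. Hmgcs1, Idi1 and Fdps stand highest in both groups, and the Ggps1 bars are nearly equal in height.

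Within a group the enzymes did not all vary together. The median deviation of the 9 enzymes from their own group mean was -0.05, 0.02 and -0.02 on the log2 scale in GSK126 replicates 1 to 3 and -0.05, -0.04 and 0.14 in DMSO replicates 1 to 3. DMSO replicate 3 was thus the control library with the highest values, above the group mean for 6 of the 9 enzymes, among them Pmvk, Mvd and Fdps. Acat2, Hmgcs1 and Idi1 had their lowest DMSO values in that same library. In GSK126 replicate 3, the library apart from its group, 4 of the 9 enzymes were above the group mean. Without it, 6 enzymes were called higher and the median log2 fold change was 0.65.

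Reads of some of these genes cannot be told apart from those of other genes, since neither the counting tool nor its strand setting was stated. Fdft1 shares 774 bp of exons on the opposite strand with Ctsb, a lysosomal protease gene with 1109% as many reads, which itself rose (log2 fold change 0.20, SE 0.04). The summed counts of both genes had a log2 fold change of 0.24 (SE 0.04; edgeR adjusted p = 0.0139). Ggps1 shares 257 bp, 5.44% of its exon bases, with Arid4b, a chromatin protein gene, on the opposite strand. The reads of Arid4b were 97.4% as many as those of Ggps1, so their sum weighs both genes nearly alike. Arid4b had a log2 fold change of 0.38 (SE 0.10; edgeR adjusted p = 0.0594), and the sum of both turned the sign of the Ggps1 value to 0.17 (SE 0.05; edgeR adjusted p = 0.0789).

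Fdps shares 1124 bp of exons on the same strand with Gm43738, which had 3.3% as many reads, and the genes that overlap Hmgcs1 and Idi1, Gm48342 and Gm48574, had 0 reads. Acat2, Idi1, Fdps, Ggps1 and Fdft1 share sequence with copies elsewhere in the genome. Of the 50-base stretches in the longest Acat2 transcript, 45.9% also occur in Acat3, another mouse thiolase gene, which had 2.81 ± 0.210 CPM with GSK126 and 1.57 ± 0.451 CPM with DMSO (SD, n = 3 each; log2 fold change 0.83, SE 0.24; edgeR adjusted p = 0.0718). A share of 13.2% occurs in Tcp1 on the opposite strand, a chaperonin gene that fell (log2 fold change -0.14, SE 0.03). The processed pseudogene Gm13502, which holds 21.3% of the 50-base stretches of Idi1, rose by 1.31 (SE 0.13) on the log2 scale. Gm3571, a processed pseudogene, holds 3.24% of the stretches of Fdps and had 4562 reads over the 6 libraries, beside 14574 for Fdps. Gm3571 rose by 0.88 (SE 0.07), the same value as Fdps to 2 decimals. Gm5873, a further copy, holds 1.03% of the stretches of Fdps and had 760 reads. Its log2 fold change was 0.97 (SE 0.25; edgeR adjusted p = 0.0481). The processed pseudogene Gm6781 holds 10.9% of the stretches of Fdft1 and had 348 reads, and Gm5630 holds 6.15% of those of Ggps1 and had 23 reads. Whether the pseudogene reads came from the parent transcripts was not tested. With the copies added in, the log2 fold changes were 0.65 for Acat2, 0.90 for Idi1, 0.89 for Fdps and 0.73 for Fdft1, all past the test, and -0.02 for Ggps1, which did not pass. Pmvk and Mvd share none of their 50-base stretches with another transcript.

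**Figure D3:**
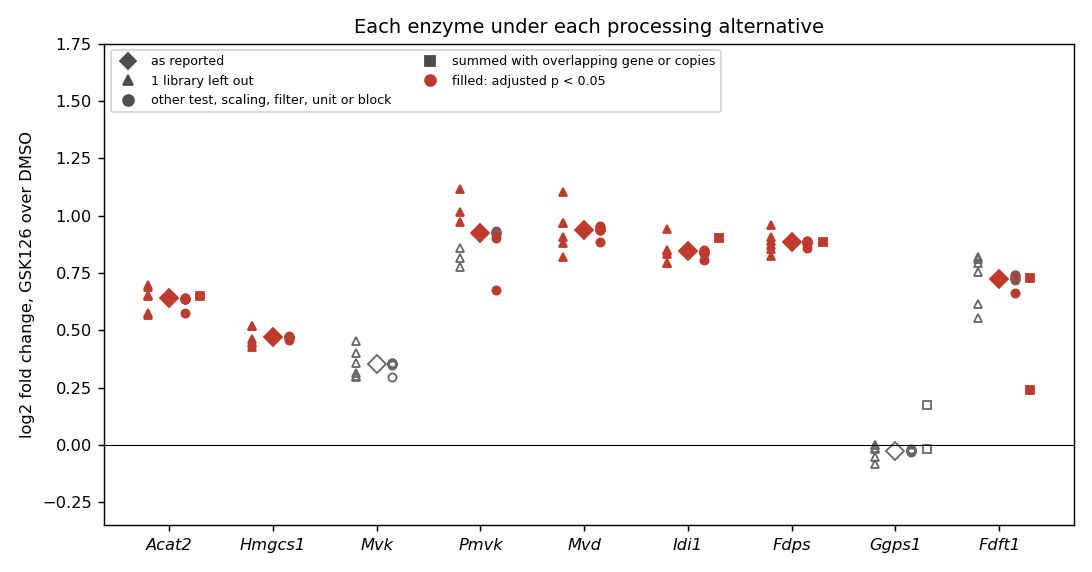
Log2 fold change of each enzyme as reported and under each alternative; filled symbols passed the test. Fdps, Idi1, Mvd and Acat2 passed in all fits, the triangles of Fdft1 are all open, and the lowest Fdft1 square at 0.24 is its sum with Ctsb.

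Promoter windows from RefSeq (GRCm38.p6, 250 bases before to 50 after the transcript start) matched 7 of the 9 enzymes, all but Fdps and Fdft1. The CCAAT box, searched as CCAAT on both strands, was in a window of 6 of the 7 (85.7%), beside 43.6% of 9579 tested genes with a window. Acat2 was the exception. Mvk held 5 copies and Hmgcs1 4, while Ggps1, whose groups overlapped, held 3. The motif was therefore in windows of enzymes that passed the test and of both that did not. The 200 bases before the transcript start are shown for Hmgcs1 and Mvd, which rose, and for Mvk, which had the most copies. In Hmgcs1 the other 2 matches lie outside the printed stretch. Each is written in the direction of the gene, and capitals mark CCAAT, or ATTGG where it lies on the other strand, and in Hmgcs1 also a match to a relaxed sterol element.
Hmgcs1 promoter, chr13:119690151-119690350, plus strand: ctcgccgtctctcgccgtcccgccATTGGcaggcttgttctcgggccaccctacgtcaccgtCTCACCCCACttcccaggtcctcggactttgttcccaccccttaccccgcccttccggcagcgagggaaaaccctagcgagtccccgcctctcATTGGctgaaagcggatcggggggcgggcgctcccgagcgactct
Mvd promoter, chr8:122443423-122443622, minus strand: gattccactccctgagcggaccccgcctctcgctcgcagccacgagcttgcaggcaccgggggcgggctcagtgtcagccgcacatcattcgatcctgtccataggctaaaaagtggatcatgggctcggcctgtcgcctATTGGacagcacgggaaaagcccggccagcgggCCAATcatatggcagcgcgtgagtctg
Mvk promoter, chr5:114444069-114444268, plus strand: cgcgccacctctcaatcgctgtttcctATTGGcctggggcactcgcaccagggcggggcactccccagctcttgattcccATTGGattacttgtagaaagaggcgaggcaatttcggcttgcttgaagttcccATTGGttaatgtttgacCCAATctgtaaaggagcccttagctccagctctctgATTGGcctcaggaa

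The sterol regulatory element, searched as ATCAC, any base and CCAC in that order on both strands, was in 0 of the 7 enzymes with a window and in 0.177% of tested genes. With the first base left free (chosen after the windows were seen), it matched once, in Hmgcs1 as CTCACCCCAC, 138 bases before the start; 1.38% of tested genes held it. The E-box CACGTG was in none of the 7, beside 12% of tested genes. The GC box GGGCGG was in 5 of 7 (71.4%), close to its 70.2% among tested genes. Motif matches describe the letters in these windows and show neither binding nor its absence.

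**Figure D4:**
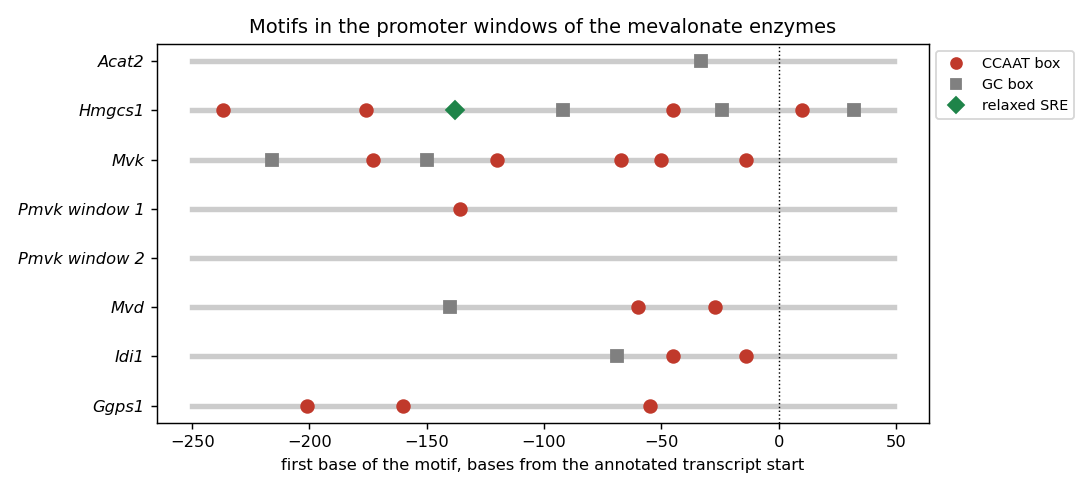
First base of each motif match in the promoter windows, in bases from the annotated transcript start (dotted line); Pmvk has 2 windows. CCAAT matches are spread over 6 of the 7 genes, with 5 in Mvk, and the relaxed sterol element is in Hmgcs1 alone.

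The rest of the route was read from the same fit. In the sterol arm, which converts squalene to cholesterol, 8 of 11 enzymes rose and 0 fell, beside 5.87% and 5.18% of all tested genes, with a median log2 fold change of 0.55. The count was 9 by DESeq2, 7 by limma-voom, 6 with no filter on low counts and 6 to 7 with a library left out. None of the 11 was lower at an unadjusted p below 0.05, beside 13.1% of all tested genes. The enzymes that rose were Sqle (0.53), Lss (0.74), Cyp51 (0.55), Tm7sf2 (1.34), Nsdhl (0.91), Hsd17b7 (0.69), Sc5d (0.43) and Dhcr7 (0.36), given as log2 fold changes. Cyp51, the sterol demethylase, had the highest CPM, at 259 ± 13.03 CPM with GSK126 and 176 ± 7.01 CPM with DMSO (SD, n = 3 each). Among the fits with a library left out, Sqle passed only without GSK126 replicate 1 and Tm7sf2 only without GSK126 replicate 3, while the other 6 passed in each. The CCAAT box was in windows of 10 of the 10 sterol arm genes with a window, beside 43.6% of tested genes. The GC box was also in 10 of 10, beside 70.2%, and the E-box in 3 of 10, beside 12%.

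Enzymes that use the products of the mevalonate arm outside sterol synthesis were read in the same way. Of 17 such enzymes, among them the farnesyl and geranylgeranyl transferases and those of ubiquinone and dolichol synthesis, 0 rose, 1 fell and 16 did not pass the edgeR test. That is near the 5.18% of all tested genes called lower. At an unadjusted p below 0.05, 1 was higher and 3 were lower, beside 14.4% and 13.1% of all tested genes. DESeq2 called none of them and limma-voom called 1 lower. The median log2 fold change was -0.04, beside 0.72 for the mevalonate enzymes. Nus1, a subunit of the enzyme that makes the dolichol precursor, was the one that fell, to 231 ± 7.46 CPM with GSK126, against 262 ± 6.86 CPM with DMSO (SD, n = 3 each; log2 fold change -0.18, SE 0.04; edgeR adjusted p = 0.0411). Among the fits with a library left out, the fall passed only without GSK126 replicate 3. The CCAAT box was in windows of 6 of the 14 genes of this list with a window (42.9%), beside 43.6% of tested genes. The GC box was in 9 of the 14 (64.3%) and the E-box in 2 (14.3%), beside 70.2% and 12% of tested genes.

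**Figure D5:**
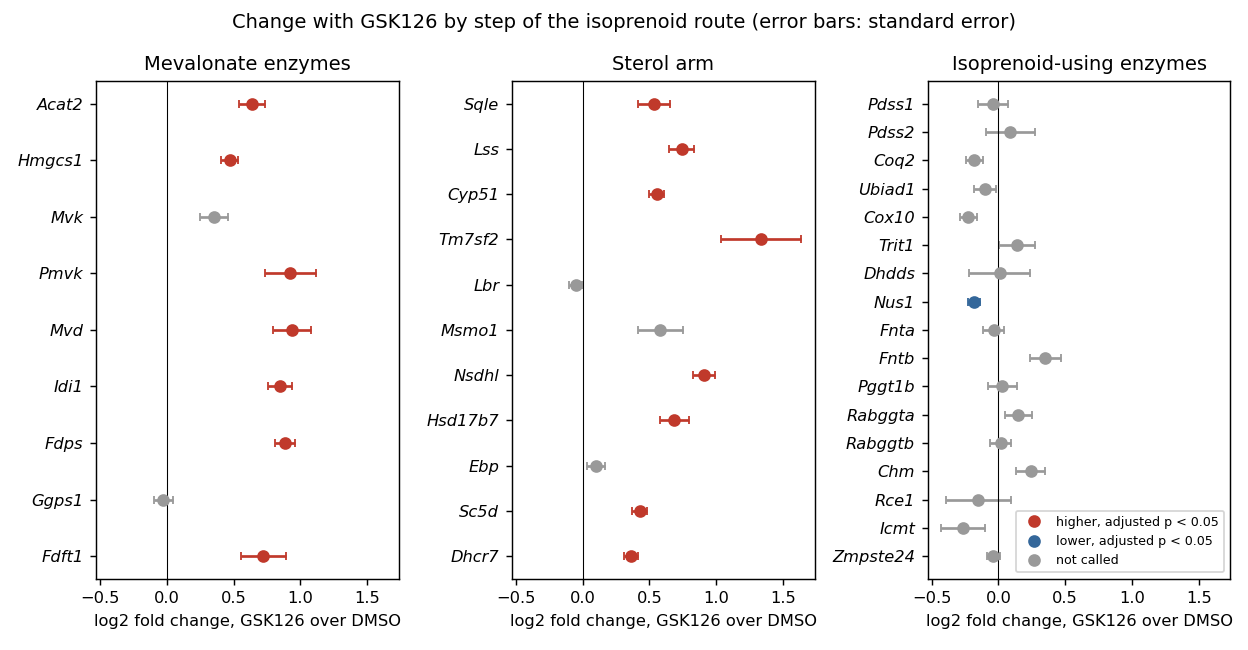
Log2 fold change with its standard error for the mevalonate enzymes, the sterol arm and enzymes that use isoprenoids; red passed the test as higher, blue as lower and grey did not pass. In the mevalonate panel 7 of 9 points are red, against 8 of 11 in the sterol arm and 0 of 17 among the users.

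Relatives of the first enzymes and of Idi1, and ketone body genes, were read from the same fit. Of 9 genes, Hmgcll1 and Idi2 had 0 reads in every library, and none of the 7 tested passed by edgeR or limma-voom. By edgeR, 11.1% of all tested genes were called in either direction. DESeq2 called Oxct1, and 3 of the 7 were higher and 0 lower at an unadjusted p below 0.05, beside 14.4% and 13.1% of all tested genes. Acat1, the mitochondrial thiolase, stood at 198 ± 8.06 CPM with GSK126 and 203 ± 6.35 CPM with DMSO (SD, n = 3 each; log2 fold change -0.04, SE 0.05; edgeR adjusted p = 0.662). Oxct1, which activates ketone bodies for use, had the highest CPM of the list, at 1047, 665 and 1127 CPM in the GSK126 libraries, against 671, 644 and 648 CPM in the DMSO libraries. GSK126 replicate 2 lay within the DMSO range and the other GSK126 libraries well above it (log2 fold change 0.53, SE 0.17; edgeR adjusted p = 0.0975), and without that library Oxct1 passed the test.

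Of 7 genes of the sterol-sensing machinery, Srebf2 (log2 fold change 0.44), Insig1 (0.29), Insig2 (0.28) and Srebf1 (0.28) rose and 0 fell, beside 5.87% and 5.18% of all tested genes. None was lower at an unadjusted p below 0.05, beside 13.1% of all tested genes. These rises were smaller than the median of 0.72 over the mevalonate enzymes. Of the fits with a library left out, Srebf2 passed in each and Srebf1 in none. Among those same fits, Insig1, which holds the SREBP complex back, lost its call without DMSO replicate 1 alone, and Insig2 passed without GSK126 replicate 3 and without DMSO replicate 1. With the replicate number as a block, Srebf2 alone passed.

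The mean profile of the 9 enzymes over the 6 libraries was compared with 9869 other protein-coding genes of at least 5 CPM, by the root mean square difference of log2 CPM centred on the DMSO mean. Among the 6 nearest genes were Fads2, a fatty acid desaturase gene (difference 0.03), Tuba1a, an alpha-tubulin gene (0.04), Pars2, the mitochondrial prolyl-tRNA synthetase gene (0.04), Usp3, a deubiquitinase gene (0.05), and Nicn1 (0.05). The enzymes themselves lay between 0.15 (Hmgcs1) and 0.47 (Ggps1) from their own mean profile. The named genes were picked as the nearest of 9869, so their smaller differences follow from that choice. A small difference describes the same size of change in these libraries and nothing more.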

How the data were processed

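RNA of 6 libraries was sequenced by the authors. Per the submitters' processing notes, base calling used CASAVA 1.8 and alignment used HISAT2 against GRCm38.p4/mm10; how reads were counted, with which strand setting and annotation, was not stated. The authors deposited whole-number read counts for each gene and, separately, FPKM values of the same libraries. The deposited FPKM were proportional to the counts within a gene (ratios between libraries of 0.9994 to 1.0002 over 12812 genes). Counts were tested in R 4.3.3 with edgeR 4.0.16 (filterByExpr, TMM, quasi-likelihood F test, treatment as the only term), adjusted by Benjamini-Hochberg over 13601 genes with a threshold of 0.05. The standard error was derived from the F statistic. DESeq2 1.42.0, limma 3.58.1, other scalings, no filter, FPKM, the replicate number as a block, each library left out and sums with overlapping genes or copies were alternatives; the sums with copies were added after seeing the data. Replicates differed by more than counting noise (chi-square over its degrees of freedom from 7.12 to 13.3). Exon overlaps and 50-base stretches came from GENCODE M21, which gives all 9 enzymes the same positions as the files, and log2 CPM profiles used a pseudocount of 0.5. The members, lists, motifs and tests were chosen with earlier results of these data known. Genes were named as all 9 enzymes, Ezh2, every called and the most abundant gene of each list, 5 of the 6 nearest profiles and overlapping genes. Overlaps were summed where the partner had at least 10% as many reads. Some genes of the route and of the lists are not reported here, and the list counts and medians are without them.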

Additional observations from a re-analysis of the deposited data

How the results depend on the processing

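Of 131 values of single enzymes under the alternatives, 116 kept their direction and side of the threshold, 14 kept the direction without passing, and 1 changed sign (Ggps1, -0.082 to 0.0010 with a library left out, positive without GSK126 replicate 1). Sums with exon-sharing genes are apart from these, since they hold all reads of both genes. With Arid4b added in, at 97.4% as many reads and a log2 fold change of 0.38 of its own, the Ggps1 value became 0.17. The sum of Fdft1 with Ctsb, 0.24, holds mostly Ctsb reads. Which gene the reads in shared exons came from was not tested. The count of mevalonate enzymes called higher ranged from 5 to 6 with a library left out, was 5 with no filter on low counts and 5 with the replicate block, and their median log2 fold change ran from 0.65 to 0.82 with a library left out. Over all genes, 1503 were called as reported, 899 with no filter, and 529, 577 and 694 without DMSO replicates 1, 2 and 3 and 698, 815 and 1243 without GSK126 replicates 1, 2 and 3. Isoprenoid-using enzymes called numbered 0 by DESeq2, 0 with no filter, 2 by limma on FPKM with either pseudocount, and 0 to 2 with a library left out. Thiolase and ketone body relatives called numbered 1 by DESeq2 and 0 to 1 with a library left out. SREBP regulators called numbered 2 with no filter and 2 to 3 with a library left out.

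Same-numbered libraries showed no shared deviation from their group means, with correlations of 0.01, -0.0019 and -0.06. No GSK126 replicate correlated best with its own number. With so few libraries, these values cannot show whether the libraries were paired by design. With the replicate block 408 genes, 0 isoprenoid-using enzymes and 1 SREBP regulator were called, and Hmgcs1 and Pmvk missed the threshold (adjusted p = 0.0501 and 0.0668 by edgeR). Pmvk had 69 to 202 reads per library, the fewest of the 9 enzymes.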
